A study of Homo sapiens with 4 samples.

Results

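Ovarian and Müllerian lineage markers were examined in HeyC2 and SKOV3, a pair of ovarian cancer cell lines, as 10 genes chosen by symbol: PAX8, SOX17, WT1, ESR1, MUC16, MSLN, MUC1, FOLR1, WFDC2 and KLK6. All 10 symbols were found among the 26506 gene symbols of both expression tables. The RNA-seq series held 4 libraries, 1 per group. The groups were HeyC2 control, HeyC2 TET1, SKOV3 control and SKOV3 TET1. Both lines derive from human ovarian carcinoma, and all 4 cultures had been transfected with 3 μg of plasmid and kept in medium with 400 μg/ml Geneticin, a neomycin-type antibiotic. The TET1-reprogrammed cells received pCMV6/TET1, a plasmid in which the viral CMV promoter drives the methylcytosine dioxygenase TET1, and the controls, whose genotype is labelled wild-type, received the empty plasmid. The sources used here do not say whether each transfected culture was 1 clone or a pool. With 1 library per group no difference has a replicate check, so no test between groups was possible and the comparisons below describe these libraries.

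The Müllerian ducts of the embryo form the oviduct, uterus and upper vagina, and their epithelium is marked by the transcription factors PAX8 and SOX17. Most high-grade serous ovarian carcinomas carry such a Müllerian identity, and pathologists use PAX8, WT1 and the estrogen receptor ESR1 to recognise it. The other markers are surface or secreted proteins. MUC16 carries the CA125 epitope, MSLN (mesothelin) binds MUC16, MUC1 is a transmembrane mucin, FOLR1 is folate receptor alpha, WFDC2 is the serum marker HE4, and KLK6 is a secreted serine protease of the kallikrein family.

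Levels are given as FPKM, the number of fragments divided by transcript length and sequencing depth, so that they can be compared between genes. The deposited FPKM of each TET1 library had been multiplied by 1 constant, 3.234 in HeyC2 and 1.346 in SKOV3, which made GAPDH equal to its control value. All levels below are FPKM before that scaling. PAX8 in HeyC2 TET1, for example, was deposited as 629.87 and stood at 194.74 before the scaling. The targeted gene TET1 stood at 0.20 FPKM in the HeyC2 control and 0.52 in HeyC2 TET1, and at 0.43 and 1.8 in SKOV3 control and SKOV3 TET1. The depth was estimated as 6620000 to 7340000 fragments per library, from how far apart the lowest nonzero FPKM lay, so that 1 fragment on a short transcript such as WFDC2 already gave 0.36 FPKM. Fragment numbers for single genes are approximate, since they come from this depth and the GENCODE transcript length, and their 95% intervals are exact Poisson intervals that cover counting error only. TET1 itself rested on an estimated 14 fragments (7.65 to 23.5) in the HeyC2 control and 34 (23.5 to 47.5) in HeyC2 TET1. In SKOV3 control and SKOV3 TET1 it rested on 29 and 112.

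The 10 markers fell into those that both lines expressed, those that only SKOV3 expressed at 1 FPKM or more, and those at or near 0 in every library. Of the 10 markers, 4 reached 1 FPKM in each HeyC2 library, namely PAX8, SOX17, MSLN and MUC1, while 5 were listed at 0. SKOV3 added ESR1 and FOLR1, so that 6 of 10 reached it in the control, and 5 in the TET1 library, where MSLN did not. Of all genes, 44.0% to 50.4% reached 1 FPKM in the 4 libraries. The identity label was checked against epithelial markers, of which KRT8 and KRT18 stood at 192.85 FPKM or more in every library. EPCAM was at 0.09 and CDH1 at 0 in the HeyC2 control, and EPCAM at 15.39 and CDH1 at 2.24 in the SKOV3 control, so the HeyC2 libraries lacked 2 defining epithelial surface genes that SKOV3 carried.

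**Figure D1:**
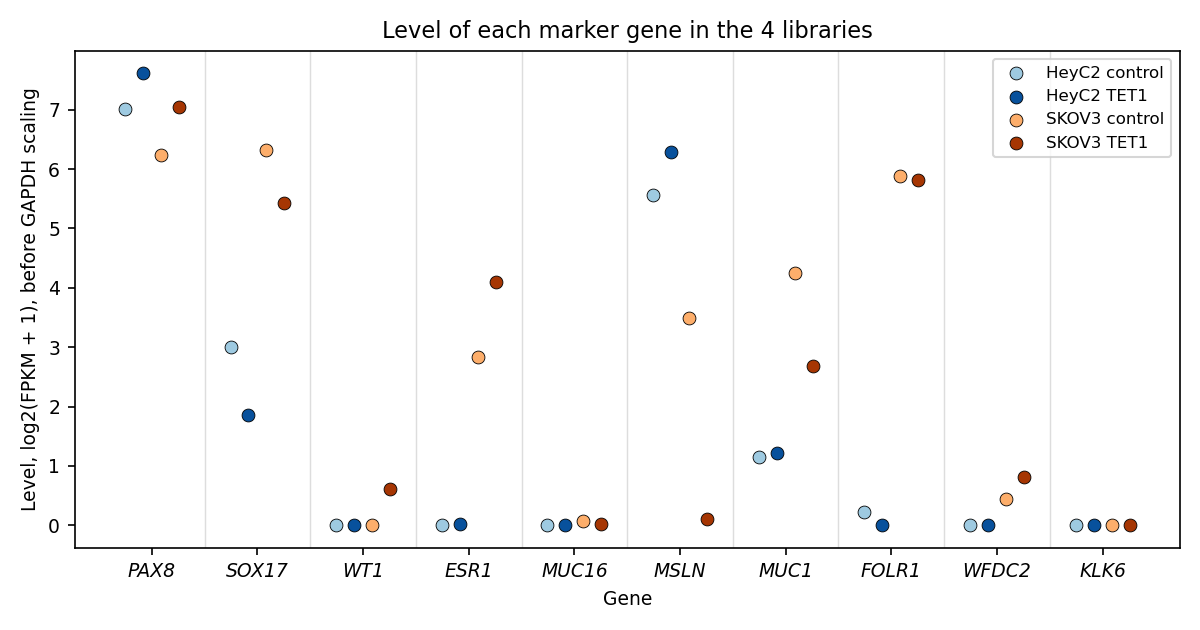
Each point is the level of 1 marker in 1 library, as log2(FPKM + 1) before GAPDH scaling, with the genes along the x axis and the 4 libraries in separate colors. PAX8 is high in all 4 libraries, FOLR1 and ESR1 stand above 0 only in the SKOV3 libraries apart from traces, and KLK6 is at 0 throughout.

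PAX8, on chromosome 2 (GRCh37, 113973574 to 114036498, minus strand), was the highest of the markers in 3 of the 4 libraries and the only one above 70 FPKM in every library. In HeyC2 it stood at 128.11 FPKM in the control and 194.74 in TET1-reprogrammed cells, and in SKOV3 at 74.59 and 131.08. These levels lie between percentile 95.6 and 98.6 of all genes of their library and rest on an estimated 2063 to 5165 fragments. In the SKOV3 control SOX17 was slightly higher, at 79.38 FPKM.

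The promoter windows of PAX8, of MUC1 and of WFDC2 are shown because they belong to a marker present in all libraries, one with unequal change in the lines and one with almost no transcript. Each holds the 250 bases before the RefSeq transcription start on GRCh38.p14, 5′ to 3′ on the gene's strand, at chr2:113278922-113279171 (minus strand), chr1:155192916-155193165 (minus strand) and chr20:45469503-45469752 (plus strand). Capitals mark CpG dinucleotides, the sites whose methylated cytosine TET1 oxidises.
PAX8: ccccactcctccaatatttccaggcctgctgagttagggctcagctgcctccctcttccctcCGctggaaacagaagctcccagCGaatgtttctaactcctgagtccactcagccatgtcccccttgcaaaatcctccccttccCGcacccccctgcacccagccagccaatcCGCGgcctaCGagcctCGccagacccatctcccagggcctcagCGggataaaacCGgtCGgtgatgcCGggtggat
MUC1: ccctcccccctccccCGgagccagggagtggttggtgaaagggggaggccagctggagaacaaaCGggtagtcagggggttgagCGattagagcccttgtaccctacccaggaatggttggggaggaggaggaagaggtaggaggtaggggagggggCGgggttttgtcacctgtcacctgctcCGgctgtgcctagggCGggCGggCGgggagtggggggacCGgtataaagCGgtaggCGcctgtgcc
WFDC2: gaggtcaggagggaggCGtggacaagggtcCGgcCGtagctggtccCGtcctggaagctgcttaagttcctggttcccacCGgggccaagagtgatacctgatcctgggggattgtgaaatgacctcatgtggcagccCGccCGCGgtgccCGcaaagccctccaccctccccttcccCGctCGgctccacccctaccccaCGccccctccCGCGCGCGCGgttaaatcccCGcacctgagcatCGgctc
The PAX8 window held 11 CpG, MUC1 11 and WFDC2 19. Their CpG observed/expected ratios, the CpG number divided by that expected from the C and G content, were 0.52, 0.45 and 0.69, beside a median of 0.56 over 35116 promoter windows of the same length. Windows were found for 7 of the 10 markers, 17 windows in all because ESR1 has 6 starts and WT1 has 4. A ratio of at least 0.6 was found in 5 of these 17 windows and in 47.9% of all windows. The letters TATAAA, searched on both strands, occurred in both overlapping MUC1 windows, in no window of the other 6 genes and in 10.7% of all windows. DNA methylation was not analysed here.

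**Figure D2:**
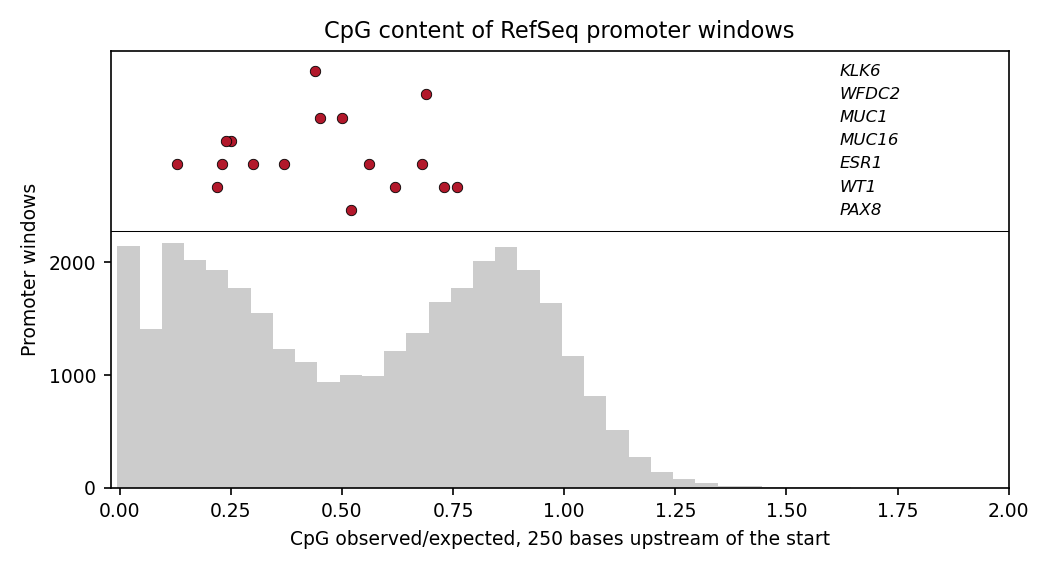
The grey histogram counts all 35116 RefSeq promoter windows by the CpG observed/expected ratio of the 250 bases upstream of the start, and each red point is 1 window of a marker gene, in a row per gene. PAX8 at 0.52 lies in the dip between the low and the high peak of the histogram, WFDC2 at 0.69 on the rise to the high peak, and the MUC16 windows, at 0.24 and 0.25, on the fall from the low one.

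The change between TET1-reprogrammed and control cells was taken as the difference in log2(FPKM + 1) minus the median difference of all genes with a mean of at least 1 FPKM in the 2 libraries, and is called the relative change. The median taken off was 0.06 in HeyC2 and 0.19 in SKOV3. A relative change of at least 1.5-fold in either direction, 0.58 on the log2 scale, was used as the limit. A gene below 1 FPKM in 1 library can reach a mean of 1 only through the other library, which sets the direction of its difference. In the TET1 comparisons this holds for MSLN in SKOV3 among the markers. In HeyC2, 4 of the 10 markers passed the filter on low values, and 1 of them, MSLN, was past the limit upward, beside 12.5% of all 11894 genes tested. SOX17 was past it downward, beside 9.17% of all genes. In SKOV3, 6 markers passed the filter. PAX8 and ESR1 were past the limit upward, beside 20.7% of 13013 genes, and SOX17, MSLN and MUC1 downward, beside 18.2%. Between 4 and 6 genes are too few to set these counts against the shares of all genes, and the markers are therefore described one by one.

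Among the lineage transcription factors, PAX8 was higher in the TET1 library of both lines by nearly the same amount, with relative log2 changes of 0.54 in HeyC2 and 0.61 in SKOV3. These are 1.46-fold and 1.53-fold, just below and just above the limit, so the lines differ in the call and hardly in the value. In bulk cultures, fewer or more cells that express a gene and less or more RNA per cell cannot be told apart, here and for every marker below. Of all genes tested, 86.0% in HeyC2 and 80.3% in SKOV3 had a lower relative change. Counting error alone gave intervals of 0.48 to 0.60 and 0.52 to 0.68 for the ratio without a pseudocount. The antisense transcript PAX8-AS1 overlaps PAX8 on the opposite strand and was examined after the values were seen. It stood at 17.30, 22.41, 6.90 and 13.02 FPKM in HeyC2 control, HeyC2 TET1, SKOV3 control and SKOV3 TET1, with relative changes of 0.30 and 0.64. Its level ran below that of PAX8 in every library. The sources used here do not say whether reads were counted by strand, and without strand the reads of PAX8 and PAX8-AS1 cannot be told apart where they overlap.

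SOX17, a SOXF transcription factor of endoderm, vessels and Müllerian epithelium, was lower in the TET1 library of both lines. It lies on chromosome 8 (55370495 to 55373452, plus strand). In HeyC2 it stood at 7.01 FPKM in the control and 2.64 in TET1-reprogrammed cells, and in SKOV3 at 79.38 and 42.21. Both SKOV3 libraries were thus far above both HeyC2 libraries, and within each line the TET1 library was the lower one. The relative log2 changes were -1.20 in HeyC2, where SOX17 was 2.29-fold lower, and -1.09 in SKOV3, where it was 2.12-fold lower. Without a pseudocount SOX17 was 2.78-fold lower in HeyC2 and 2.18-fold lower in SKOV3, so the closeness of the lines rests in part on the pseudocount. Of all genes tested, 1.8% in HeyC2 and 5.2% in SKOV3 had a lower value. The HeyC2 levels rest on an estimated 113 and 39 fragments, and the counting interval of the ratio without a pseudocount was -2.04 to -0.94, against -1.27 to -0.98 in SKOV3. In the TET1 libraries PAX8 was thus relatively higher and SOX17 relatively lower in both lines.

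ESR1, the estrogen receptor alpha gene on chromosome 6 (151977826 to 152450754, plus strand), was found in SKOV3 and was higher there in the TET1 library. It was listed at 0 in the HeyC2 control and at 0.02 FPKM in HeyC2 TET1, about 1 fragment. It stood at 6.16 FPKM in control and 16.04 in TET1-reprogrammed SKOV3 cells, an estimated 270 and 653 fragments. The relative log2 change in SKOV3 was 1.06, or 2.08-fold higher, with a counting interval of 0.96 to 1.38 for the ratio without a pseudocount. Of all genes tested, 90.7% had a lower value.

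Other receptors of the steroid family were read beside ESR1. PGR and ESR2 stayed under 1 FPKM in all 4 libraries, and the glucocorticoid receptor gene NR3C1 was expressed in both lines, at 16.74, 17.46, 13.65 and 9.71 FPKM. Of 16 genes listed as estrogen-responsive, 8 passed the filter in SKOV3, and 3 were past the limit upward and 2 downward. Their median relative change was 0.40. AGR2 (0.69 and 2.03 FPKM) and GREB1 (0.73 and 1.51 FPKM) passed only through SKOV3 TET1, which set the upward direction of their difference. AGR2, with 0.65, is among the 3 counted upward, and both genes enter the median. In HeyC2, where ESR1 was at or near 0, 7 passed, with 1 upward and 1 downward and a median of 0.03. RARA, a retinoic acid receptor gene, had relative changes of 1.32 in SKOV3 and -0.25 in HeyC2. CCND1, the cyclin D1 gene, was at 145.43 FPKM in control and 26.23 in TET1-reprogrammed SKOV3 cells, a relative change of -2.62. In HeyC2 CCND1 was at 329.38 and 228.03 FPKM, a relative change of -0.59, so it was past the limit downward in both lines. IGFBP4, a binding protein for insulin-like growth factors, was at 252.34 and 601.85 FPKM in HeyC2, a relative change of 1.19. The genes of the list past the limit in SKOV3 thus lay on both sides of it. Here and for the lists below, the shares of all genes past the limit were 12.5% upward and 9.17% downward in HeyC2 and 20.7% and 18.2% in SKOV3, and the lists are too short to be set apart from them.

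WT1, a zinc-finger factor of the urogenital ridge, mesothelium and serous carcinoma, lies on chromosome 11 (32409321 to 32457110, minus strand). It was listed at 0 in both HeyC2 libraries and in the SKOV3 control, and at 0.53 FPKM in SKOV3 TET1. That level rests on an estimated 10 fragments, with an interval of 4.80 to 18.4, whereas 0 fragments allow up to 3.69 in the control. WT1 stayed below the filter in both lines, and no fold is given against a level of 0. Its antisense transcript WT1-AS, examined after the values were seen, was listed at 0 in all 4 libraries.

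A list of 19 further transcription factors of the Müllerian duct, urogenital tract and ovary was read beside these members. In HeyC2, 8 passed the filter, 1 was past the limit upward and 1 downward, with a median relative change of -0.27. In SKOV3, 9 passed, 2 were past it upward and 0 downward, with a median of 0.21. MECOM, a zinc-finger oncogene, was the highest in SKOV3, at 6.17, 10.62, 65.45 and 86.61 FPKM in HeyC2 control, HeyC2 TET1, SKOV3 control and SKOV3 TET1, with relative changes of 0.64 and 0.21. LHX1, which is needed for formation of the Müllerian duct, was at 8.95 and 18.13 FPKM in SKOV3, a relative change of 0.75, and stayed under 1 FPKM in HeyC2. NR2F2, an orphan nuclear receptor gene, was the highest of the list in HeyC2, at 29.04 and 27.21 FPKM, a relative change of -0.15. In SKOV3 it was at 17.73 and 31.95 FPKM, a relative change of 0.62. PAX2, the PAX8 paralog of the same tract, was 1 of 6 among the 9 PAX genes that were listed at 0 in all 4 libraries. Of the other PAX genes, PAX6 stood at 5.51 and 2.85 FPKM in HeyC2, a relative change of -0.82, and PAX9 at 0.34 and 1.74 FPKM in SKOV3, a relative change of 0.84. PAX9 passed the filter in SKOV3 only through the TET1 library, which set the upward direction of its difference.

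**Figure D3:**
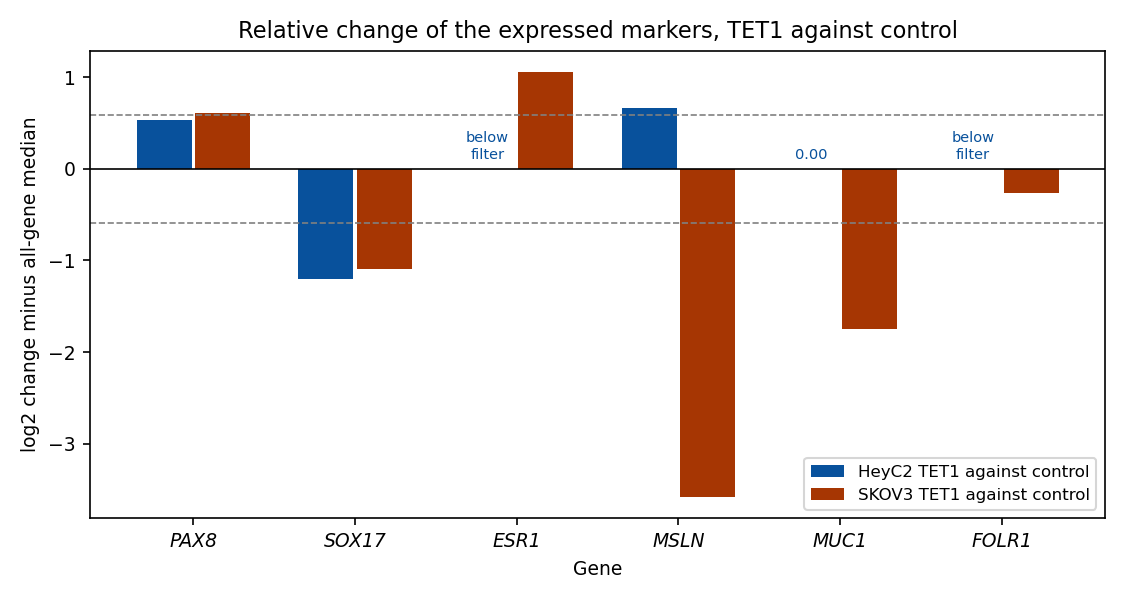
Bars give the relative change (log2 change of TET1 against control minus the all-gene median) of the 6 markers that passed the filter in at least 1 line, with dashed lines at 1.5-fold in either direction and 1 library per bar and condition, so no error bar is drawn. PAX8 lies near the upper line in both cell lines, SOX17 at -1.20 and -1.09 below the lower one, and MSLN at 0.67 in HeyC2 and -3.58 in SKOV3.

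MSLN spanned 6.18 on the log2(FPKM + 1) scale over the 4 libraries, beside 5.89 for FOLR1, an order that rests on the pseudocount since FOLR1 was listed at 0 in 1 library. The gene encodes the precursor of mesothelin, a glycosylphosphatidylinositol-anchored protein of mesothelium and ovarian carcinoma, and lies on chromosome 16 (810734 to 818865, plus strand). It stood at 46.55 FPKM in the HeyC2 control and 77.52 in HeyC2 TET1, and at 10.29 in control and 0.08 in TET1-reprogrammed SKOV3 cells. The HeyC2 libraries were both above the SKOV3 libraries, and the TET1 library was the higher one in HeyC2 and the lower one in SKOV3. In HeyC2 the relative log2 change was 0.67, or 1.59-fold higher, with a counting interval of 0.53 to 0.81. In SKOV3 it was -3.58, and 0.2% of all genes tested had a lower value. The SKOV3 levels correspond to an estimated 148 fragments in the control and 1 in the TET1 library. Without a pseudocount the relative ratio had a counting interval of -12.5 to -4.69, so the size of the difference is open over a wide range and the value of -3.58 is held down by the pseudocount.

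Some epithelial and mesothelial genes, KRT7, KRT19 and UPK3B, were also lower in SKOV3 TET1, and their part in the MSLN difference was not tested. KRT7 was at 1537.2 FPKM in control and 21.96 in TET1-reprogrammed SKOV3 cells, with a relative change of -6.26, and KRT19 at 255.14 and 0.46 FPKM, with a relative change of -7.65. Of the 6 epithelial genes, 1 was past the limit upward in SKOV3, CDH1 with 0.98, and 2 downward, whereas KRT8 (0.28), KRT18 (0.21) and EPCAM (-0.13) were within it, and their summed level was 2560 FPKM in the control and 1070 in SKOV3 TET1. In HeyC2 the sum was 1140 and 1890 FPKM, with 2 genes past the limit upward, KRT7 with a relative change of 1.9 and KRT19 with 0.62. KRT7 was at 289.68 and 1124.57 FPKM there, whereas KRT8 (-0.36) and KRT18 (-0.05) were within the limit. KRT19 was at 0.62 and 1.59 FPKM in HeyC2. It passed the filter only through the TET1 library in HeyC2 and only through the control in SKOV3, which set its direction in each line. Of 7 mesothelial genes, MSLN and WT1 included, the sum was 69.8 and 10.7 FPKM in SKOV3 and 153 and 283 in HeyC2. UPK3B, a uroplakin gene of mesothelium, was at 57.11 and 6.20 FPKM in SKOV3, a relative change of -3.20. PDPN, the podoplanin gene, was at 92.42 and 193.78 FPKM in HeyC2, a relative change of 1.0, and below 1 FPKM in SKOV3. LRRN4 had relative changes of -1.04 in HeyC2 and 0.61 in SKOV3, the reverse of the MSLN directions. CALB2, the mesothelial marker calretinin, stayed under 1 FPKM in all 4 libraries.

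Markers of other cell types were read in the same way, and every library held at least 1 of them above 10 FPKM. The leukocyte genes PTPRC and CD14 and the endothelial genes PECAM1, VWF and KDR stayed below 1 FPKM in every library. The sum over 7 fibroblast genes lay between 1.93 and 3.15 FPKM in 3 libraries and at 35.3 FPKM in SKOV3 TET1. There 2 of the 7 were at 0. In SKOV3, 3 genes passed the filter, each below 1 FPKM in the control. They passed only through the TET1 library, which set the upward direction of their difference. COL1A1, a chain of type I collagen, stood at 0.32 FPKM in control and 27.66 in TET1-reprogrammed SKOV3 cells, LUM at 0.51 and 4.32, and COL1A2 at 0.13 and 2.12. The part of these genes in the marker differences of SKOV3 was not tested. The 4 endothelial genes summed to 19.6 and 95.4 FPKM in HeyC2 without and with TET1, nearly all of it CDH5, and to 0.86 and 0.647 in SKOV3. Of 5 leukocyte genes 2, the T cell gene CD3E among them, were at 0 in all 4 libraries, and CD68 made up most of the sum, 56.7 and 90.5 FPKM in HeyC2 and 13.3 and 21.0 in SKOV3. The granulosa-cell factor FOXL2 was at 9.90 and 5.58 FPKM in HeyC2 and at 0.10 and 0 in SKOV3, while the gonadal receptor gene NR5A1 stayed at or below 0.05 FPKM. AMH was the highest of 6 gonadal genes, at 33.17 and 29.25 FPKM in SKOV3. INHA was at 0.45 and 1.67 FPKM there, a relative change of 0.69. INHA passed the filter only through SKOV3 TET1, which set the upward direction of its difference. Of 6 ciliated-cell genes CAPS was the highest, at up to 9.51 FPKM, and none was past the limit in either line. The secretory-cell gene OVGP1 was at 0.46, 1.42, 0.75 and 1.88 FPKM in HeyC2 control, HeyC2 TET1, SKOV3 control and SKOV3 TET1.

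MUC1, the transmembrane mucin gene on chromosome 1 (155158300 to 155162707, minus strand), was lower in SKOV3 TET1 and had no measurable difference in HeyC2. In HeyC2 it stood at 1.23 FPKM in the control and 1.33 in TET1-reprogrammed cells, and in SKOV3 at 17.92 and 5.4. The relative log2 change in SKOV3 was -1.75, or 3.38-fold lower, with a counting interval of -2.39 to -1.52, and 1.3% of all genes tested had a lower value. In HeyC2 it was 0.00, but both levels rest on about 15 fragments, and the counting interval of the ratio ran from -1.09 to 1.18, so that a difference within these bounds was not detectable at this depth.

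MUC16, the CA125 gene on chromosome 19 (8959520 to 9121066, minus strand), was nearly silent. It was listed at 0 in both HeyC2 libraries and stood at 0.05 FPKM in control and 0.01 in TET1-reprogrammed SKOV3 cells. Since its transcript is very long, 43816 bases, the SKOV3 levels still correspond to about 16 and 2 fragments, with intervals of 9.15 to 26 and 0.242 to 7.22. A value of 0.01 FPKM is the smallest step of the table, so the second number is uncertain beyond counting error. MUC16 and its binding partner MSLN were thus not expressed together at 1 FPKM or more in any library.

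Of the 15 mucin genes, MUC1 and MUC16 included, 4 were at 0 in all 4 libraries and 2 passed the filter in SKOV3, 1 past the limit in each direction. The upward one was MUC20, at 1.11 and 7.08 FPKM, a relative change of 1.75. The sum over the 15 genes was 1.43 and 2.73 FPKM in HeyC2 and 20.9 and 12.9 FPKM in SKOV3.

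FOLR1, the gene of folate receptor alpha on chromosome 11 (71900602 to 71907367, plus strand), was high in both SKOV3 libraries and nearly absent in HeyC2. It stood at 58.20 FPKM in control and 55.43 in TET1-reprogrammed SKOV3 cells, both at percentile 94.1 of all genes, on an estimated 313 and 277 fragments. The Poisson intervals of 279 to 350 and 245 to 312 fragments overlap, but they take no account of depth or of the all-gene median. The relative log2 change was -0.26, within the 1.5-fold limit. The ratio without a pseudocount had a counting interval of -0.52 to -0.05, all below 0. In HeyC2 it was at 0.17 FPKM in the control, about 1 fragment, and listed at 0 in the TET1 library. FOLR3, a paralog in the same gene cluster, was at 12.12 FPKM in control and 2.00 in TET1-reprogrammed SKOV3 cells, a relative change of -2.32. Reads could be shared among the folate receptor genes, whose sequences are similar, and how such reads were divided was not tested. Of 8 folate receptor and transport genes, FOLR1 included, 7 passed the filter in SKOV3, 1 past the limit upward and 3 downward. SLC46A1, the proton-coupled folate transporter gene, had a relative change of 1.30. In HeyC2 4 passed and 0 were past the limit in either direction. GGH, a lysosomal folate hydrolase gene, had relative changes of 0.55 in HeyC2 and -0.34 in SKOV3.

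WFDC2, the HE4 gene on chromosome 20 (44098393 to 44110172, plus strand), was listed at 0 in both HeyC2 libraries and stood at 0.36 FPKM in control and 0.76 in TET1-reprogrammed SKOV3 cells. With an estimated 1 and 2 fragments no difference can be read from these levels. WFDC2 lies in a cluster of genes for WAP-domain protease inhibitors, and of 15 WAP-domain and neighboring genes, WFDC2 included, 8 were at 0 in all 4 libraries. SLPI, the secretory leukocyte protease inhibitor gene, was the highest of the others, at 7.15, 43.81, 178.29 and 166.33 FPKM in HeyC2 control, HeyC2 TET1, SKOV3 control and SKOV3 TET1, with relative changes of 2.40 and -0.29. PI3, the elafin gene, was at 4.03 FPKM in the SKOV3 control and listed at 0 in the other 3 libraries. The rest stayed at or below 0.86 FPKM.

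KLK6, on chromosome 19 (51461887 to 51472929, minus strand), was listed at 0 in all 4 libraries, where 0 fragments allow up to 3.69. The family around it was as low. Of 15 kallikrein genes 13 were at 0 in all 4 libraries, and the exceptions were KLK11 with 0.28 FPKM in the SKOV3 control and KLK14 with 0.18 in SKOV3 TET1.

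The carcinoma surface and secreted genes outside the 10 markers differed in level between the lines as well. Of 20 genes, 9 passed the filter in HeyC2, with 5 past the limit upward and 2 downward, and 14 in SKOV3, with 7 upward and 3 downward. Over all genes the shares were 12.5% upward and 9.17% downward in HeyC2 and 20.7% and 18.2% in SKOV3. The median relative changes of the listed genes were 1.11 and 0.73. SPP1, the osteopontin gene, was the highest, at 4.76 and 2.85 FPKM in HeyC2 and 110.25 and 395.63 in SKOV3, with relative changes of -0.64 and 1.64. CDH6, a cadherin gene expressed in kidney and ovarian carcinoma, was at 4.34 and 39.99 FPKM in SKOV3, a relative change of 2.75, and below 1 FPKM in HeyC2. SPON1, the F-spondin gene, was at 0.63 and 6.88 FPKM in HeyC2, a relative change of 2.22, and below 1 FPKM in SKOV3. CRABP2 was at 0.81 and 7.63 FPKM in SKOV3, a relative change of 2.06. SPON1 in HeyC2 and CRABP2 in SKOV3 passed the filter only through the TET1 library, which set the upward direction of their difference. Both are part of the upward counts and of the medians.

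The control libraries were then compared to show how the markers differ between the lines without TET1. The 2 lines were deposited in separate tables, and the values carry both the line and the library. The median difference of HeyC2 control against SKOV3 control over all genes, -0.27, was taken off. Of the 6 markers that passed, PAX8 and MSLN were past the limit toward HeyC2, beside 29.0% of 12488 genes, and SOX17, ESR1, MUC1 and FOLR1 toward SKOV3, beside 28.6%. ESR1 and FOLR1, below 1 FPKM in the HeyC2 control, passed the filter only through the SKOV3 control, which set their direction. FOLR1 had a relative log2 value of -5.39, the widest with a pseudocount of 1 but not with 0.01, where ESR1 was at -8.97 and FOLR1 at -8.04, and with a pseudocount of 1, 0.2% of all genes tested lay further toward SKOV3. SOX17 was at -3.06, or 8.34-fold lower in HeyC2, and MUC1 at -2.82. MSLN was at 2.34, or 5.07-fold higher in HeyC2, and PAX8 at 1.04, or 2.06-fold higher. ESR1 was listed at 0 in the HeyC2 control, so no fold is given. Counting intervals for the ratio without a pseudocount were 2.2 to 2.72 for MSLN, 0.98 to 1.13 for PAX8 and -3.52 to -2.95 for SOX17. They were -4.45 to -2.83 for MUC1 and -13.45 to -5.66 for FOLR1, which had about 1 fragment in the HeyC2 control, so the pseudocount held both printed values closer to 0 than their intervals.

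**Figure D4:**
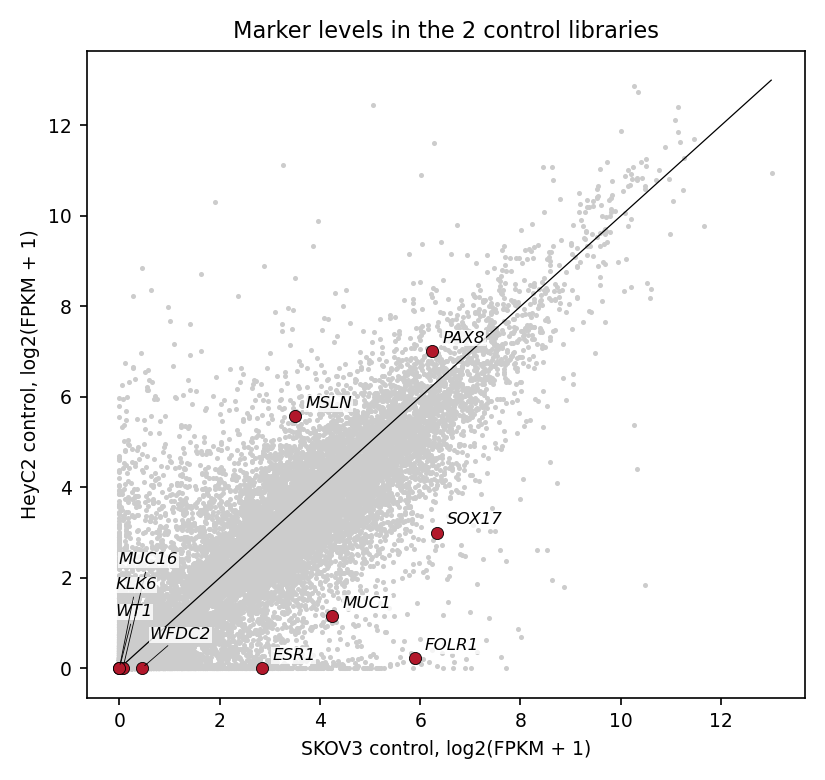
Each grey point is 1 of 26506 genes, with its level in the SKOV3 control on the x axis and in the HeyC2 control on the y axis, both as log2(FPKM + 1), and the diagonal marks equal levels. The red markers PAX8 and MSLN lie above the diagonal, SOX17, MUC1, ESR1 and FOLR1 lie below it, and WT1, KLK6, MUC16 and WFDC2 lie at or near the origin.

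The order of the markers by level therefore differed between the lines. In the HeyC2 control it ran from PAX8 (128.11 FPKM) through MSLN (46.55), SOX17 (7.01) and MUC1 (1.23) to FOLR1 (0.17). In HeyC2 TET1 the order of the first 4 was the same, at 194.74, 77.52, 2.64 and 1.33, and ESR1 (0.02) followed. In the SKOV3 control SOX17 (79.38) and PAX8 (74.59) led, followed by FOLR1 (58.20), MUC1 (17.92), MSLN (10.29), ESR1 (6.16), WFDC2 (0.36) and MUC16 (0.05). In SKOV3 TET1 the order was PAX8 (131.08), FOLR1 (55.43), SOX17 (42.21), ESR1 (16.04), MUC1 (5.4), WFDC2 (0.76), WT1 (0.53), MSLN (0.08) and MUC16 (0.01). MSLN thus went from the fifth place to the eighth, and ESR1 from the sixth to the fourth. With 1 library per group, the spread between cultures that would separate neighbors in these orders is unknown.

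In both lines together, 4 markers passed the filter, among 11134 genes that did. SOX17 was 1 of 283 genes past the limit downward in both lines, and MSLN 1 of 197 genes, 1.77% of the 11134, that were past it upward in HeyC2 and downward in SKOV3. The 2 lines share no library.

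**Figure D5:**
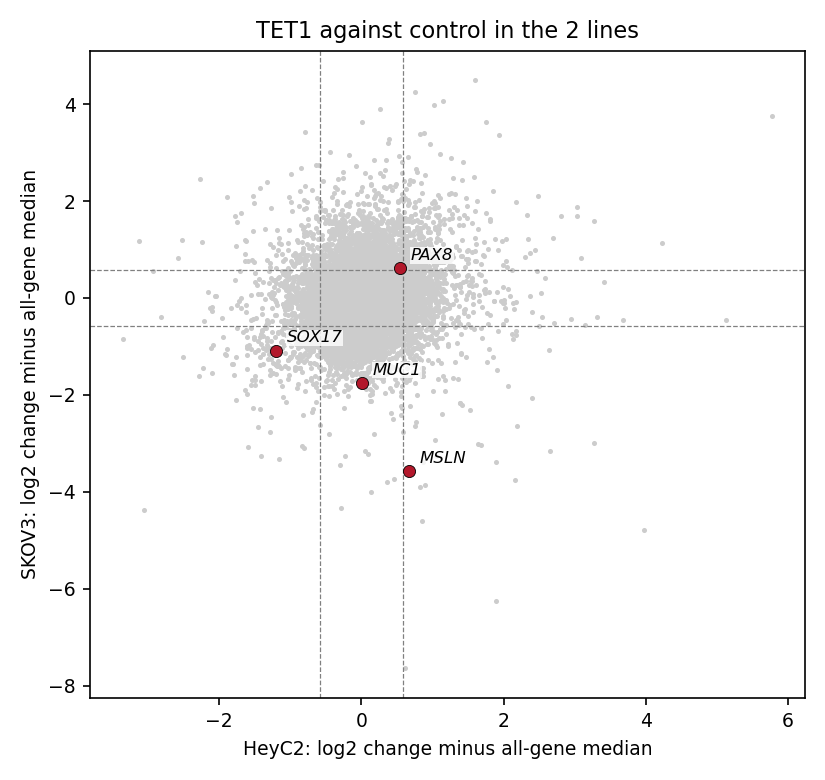
Each grey point is 1 gene out of 11134 with a mean of at least 1 FPKM in each line, with the relative change in HeyC2 on the x axis and in SKOV3 on the y axis, and dashed lines at 1.5-fold. SOX17 lies in the lower left corner, MSLN in the lower right one, MUC1 near 0 on the x axis and at -1.75 on the y axis, and PAX8 beside the crossing of the upper and right lines.

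Genes within 500 kb of each marker were read to see whether the chromosomal surroundings carried the same difference, a window chosen after the values were seen. Around MSLN, 25 genes passed in SKOV3, 6 past the limit upward and 8 downward, with a median relative change of -0.23 and a lowest value of -1.95, for NME4. MSLN at -3.58 lay below every one of them. In HeyC2 the 20 genes around MSLN had a median of 0.27. Around SOX17 only 4 genes passed, with medians of -0.06 in HeyC2 and -0.41 in SKOV3 and lowest values of -0.28 and -0.86, above SOX17 in each line. The 5 genes around ESR1 in SKOV3 had a median of -0.59 and a highest value of 0.34, below the 1.06 of ESR1. Around MUC1 the 29 genes in SKOV3 had a median of -0.01 and a lowest value of -0.99. The 9 genes around PAX8, PAX8-AS1 included, had a median of 0.64 in SKOV3, beside 0.61 for PAX8 itself, but ranged from -1.81 to 2.17. PAX8-AS1 itself had 0.64 there and may share reads with PAX8, so this median is not independent of PAX8. In HeyC2 the median of the 9 genes was 0.23. The 11 genes around FOLR1 in SKOV3, FOLR3 included, had a median of -0.76, lower than the -0.26 of FOLR1. None of the markers lies on chromosome 12, which holds GAPDH.

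The genes whose levels over the 4 libraries were nearest to those of the 3 most variable markers on the log2(FPKM + 1) scale were sought among 14386 genes, by the distance between profiles centred on their means. For MSLN these were LY6K, at a distance of 0.66, and TNFRSF11B, at 0.78. LY6K was at 30.54, 54.22, 4.50 and 0 FPKM in HeyC2 control, HeyC2 TET1, SKOV3 control and SKOV3 TET1. For FOLR1 they were HLA-F, at 0.24, and C1orf233, at 0.26. For SOX17 they were NCAPG, at 0.31, and SMN1, at 0.43, the latter with uncertain values because SMN1 shares reads with its near-identical copy SMN2. Profiles over 4 libraries are short, and many genes can lie close by.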

How the data were processed

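RNA-seq libraries of HeyC2 and SKOV3 cells, 1 per group, were analysed. The deposited FPKM, 1 table per line, were made by the authors from paired-end reads (TruSeq kits) with Bowtie2 2.2.6, the hg19 (GRCh37) genome and RSEM 1.2.17, per the labels. The annotation and read totals are not given in the sources used here. The TET1 columns had further been scaled to GAPDH. The constant was recovered by scanning for the factor that puts the distinct values below 40 FPKM on multiples of 0.01, as 100% were in both lines, and was divided out.

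Changes were log2(FPKM + 1) differences minus their median over genes whose mean FPKM reached 1. Such differences understate the change of low genes. Depth was estimated as the fragment number at which the lowest FPKM come closest to whole fragments. The match was loose (mean cosine 0.369 to 0.475, where 1 is exact). Counting intervals (95%) of a level are Poisson and of a ratio Clopper-Pearson intervals. PCR reads without molecular identifiers are not independent molecules. Coordinates and transcript lengths came from GENCODE on GRCh37 by symbol, and promoter windows from RefSeq on GRCh38.p14. Scripts were tested on simulated data. Python 3.11.15, numpy 2.4.6, pandas 2.3.3, scipy 1.17.1 and matplotlib 3.10.9 were used.

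The markers and the gene lists were chosen with earlier results of these data known. All 10 markers were named, with, from each list, the highest gene and up to 3 genes past 1.5-fold in either line, TET1, GAPDH and the nearest profiles. Other genes were named after their values were seen, and some listed genes are not reported here. Alternatives were pseudocounts of 0.1 and 0.01, no filter, a mean FPKM of at least 5, FPKM as deposited, upper-quartile scaling, TPM, and a limit of 2-fold.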

Additional observations from a re-analysis of the deposited data

Results flagged for a closer look

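MSLN was higher in the TET1 library of HeyC2 and lower in that of SKOV3, with a relative log2 change of 0.67 in HeyC2 and -3.58 in SKOV3, each past the 1.5-fold limit. This difference between the lines was not tested, since each condition has 1 library. The HeyC2 value rests on an estimated 699 and 1065 fragments, and the SKOV3 value on 148 and 1.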

How the results depend on the processing

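No paired analysis was possible because each group has 1 library and the labels give no replicate numbers. Over the 7 alternatives other than the 2-fold limit, 107 of 109 marker values stayed on their side of the 1.5-fold limit, and no value past the limit changed direction. MUC1 in HeyC2, at 0.00, ranged from -0.36 on the FPKM as deposited to 0.06. The other 2 were PAX8 in HeyC2, which passed the limit with 0.60 without a filter and with 0.68 on the FPKM as deposited, so that 2 markers were then past it upward. In SKOV3, 3 markers in place of 2 were past it upward without a filter (10 tested) and with TPM (7 tested), as markers below the filter entered. PAX8 ranged from 0.52 to 0.68 in HeyC2 and from 0.60 to 0.86 in SKOV3, SOX17 from -1.47 to -1.14 and from -1.13 to -0.85, MSLN from 0.64 to 0.80 and from -7.03 to -3.38, and ESR1 in SKOV3 from 1.06 to 1.37. Between the controls, FOLR1 ranged from -8.04 to -5.39 and ESR1 from -8.97 to -2.57, each lowest with a pseudocount of 0.01. The MSLN range in SKOV3 follows the pseudocount. A mean FPKM of at least 5 removed SOX17 from the HeyC2 comparison, which left 0 markers past the limit downward there and 673 of all genes. With the 2-fold limit, 0 markers were past it upward in HeyC2 and 1 in SKOV3. All genes past it then numbered 489 upward and 336 downward in HeyC2, 1320 and 845 in SKOV3, and 2323 and 2219 between the controls. The FPKM as deposited gave 1676 genes downward in HeyC2, against 1091. Without a filter 4417 genes were past the limit upward in SKOV3 and 5449 downward between the controls, and with TPM 4899 and 5466. Except for the 2-fold limit and the filters, the cause was not tested. Depth limits WT1, MUC16, WFDC2 and KLK6 in all libraries, and ESR1, FOLR1 and MUC1 in HeyC2.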
